A study of Mus musculus with 4 samples.

Results

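Actin cytoskeleton genes and Arhgdib, a gene known for its high level in blood cells, were followed through RNA-seq counts of mouse T-helper 2 (Th2) cells, helper T cells that secrete interleukin-4. The 10 genes, of 50600 in each table, were the actins Actb and Actg1, the actin regulators Cfl1, Pfn1, Coro1a, Tmsb4x, Arpc1b and Arpc2, and Arhgdib with Pde6h, the feature annotated opposite it. They were chosen by name with their counts known, so their levels and ratios are given as a description, with no p-value. There were 4 libraries, labelled biological replicates 1 to 4 and all of 1 group, prepared from primary Th2 cells of C57BL/6NJ mice, with no control and no other cell type, and a protocol for the differentiation of CD4 T cells is linked in the labels. Sex, age and stage are not given in the labels, and all 4 libraries carry the same donor record. Whether the replicates came from separate mice is not said, so p-values reflect the spread among these 4 samples and no more, and it may be technical.

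Actin is the filament protein that lets a T cell crawl, spread on an antigen-presenting cell and hold its receptors in a synapse. Profilin and thymosin beta-4 keep the pool of actin monomers, the Arp2/3 complex starts branches from existing filaments, and cofilin severs old filaments so that their subunits can be used again. Arhgdib encodes an inhibitory protein of the cytosol that acts upstream of these steps. Pde6h is known for another tissue: it encodes the inhibitory gamma subunit of the cone photoreceptor phosphodiesterase.

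The libraries held 1804217, 1846441, 2711948 and 2169955 counts in replicates 1 to 4, and a gene without a count can have had up to 3, or 1.11 to 1.66 CPM (the count scaled to the library total). Replicate 4 had the fewest genes with a count, 12398, against 13705 to 14083 in the other libraries. The ribosomal RNA gene CT010467.1 took 28.6% of the counts of replicate 3 and 14.4% of those of replicate 4, and at most 1.14% elsewhere. Of 9 CD4 T cell and Th2 markers 6 were called above 1 TPM (count per exon length, scaled to the same sum in each library) and the cytokine genes Il5 and Il13 below, by limma's moderated test with adjusted p under 0.05, beside 32.1% above and 26.6% below of all 17203 genes with a count. The list summed to 162, 232, 211 and 87 counts. Of the 9 markers, 3 have a feature on the other strand that shares at least 50 exon bases. Gata3, called above, had 20, 47, 44 and 22 counts, against 1364, 1638, 1747 and 2006 for Gm13256. Cd3e, not called, had 16, 17, 14 and 4, against 2549, 2746, 2735 and 2857 for Gm48719. Il5 had 1 count over all libraries, against 14 for Gm12214. Of 10 markers of other cell types, 9 had no count in any library. The exception was the endothelial and leukocyte gene Pecam1, with 23, 9, 14 and 19 counts. The counting took 1 strand only, and the strand that the library kit marks is not given in the sources used here. Each value is therefore given as a gene's count on the counted strand and not as its expression.

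Promoter stretches of 4 of the genes are shown first because they belong to the most different count patterns below: Pde6h with the most counts, Arhgdib opposite it, the actin Actg1, and Arpc1b, the actin regulator whose count stayed high in replicate 4. Each is the 250 bases before an annotated start, from RefSeq on GRCm38.p6, read 5′ to 3′ on the strand of the gene, with motif matches in capitals. They lie at chr6:136954273-136954522 on the plus strand for Pde6h, chr6:136941900-136942149 on the minus strand for Arhgdib, chr11:120348496-120348745 on the minus strand for Actg1 and chr5:145114006-145114255 on the plus strand for Arpc1b.
Pde6h: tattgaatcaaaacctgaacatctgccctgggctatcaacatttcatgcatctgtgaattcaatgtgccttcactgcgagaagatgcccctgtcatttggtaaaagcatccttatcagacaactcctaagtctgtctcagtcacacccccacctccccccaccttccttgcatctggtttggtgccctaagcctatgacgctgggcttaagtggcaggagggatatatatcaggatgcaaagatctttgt
Arhgdib: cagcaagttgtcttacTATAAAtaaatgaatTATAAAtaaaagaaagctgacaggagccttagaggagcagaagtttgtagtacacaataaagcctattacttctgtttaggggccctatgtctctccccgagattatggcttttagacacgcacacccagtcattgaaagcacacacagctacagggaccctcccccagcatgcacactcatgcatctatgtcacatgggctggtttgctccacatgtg
Actg1: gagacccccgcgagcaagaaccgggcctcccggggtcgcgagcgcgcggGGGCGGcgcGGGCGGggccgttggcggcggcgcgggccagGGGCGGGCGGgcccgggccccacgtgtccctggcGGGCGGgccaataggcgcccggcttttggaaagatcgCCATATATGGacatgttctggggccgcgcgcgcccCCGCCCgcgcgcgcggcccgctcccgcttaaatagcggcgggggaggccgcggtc
Arpc1b: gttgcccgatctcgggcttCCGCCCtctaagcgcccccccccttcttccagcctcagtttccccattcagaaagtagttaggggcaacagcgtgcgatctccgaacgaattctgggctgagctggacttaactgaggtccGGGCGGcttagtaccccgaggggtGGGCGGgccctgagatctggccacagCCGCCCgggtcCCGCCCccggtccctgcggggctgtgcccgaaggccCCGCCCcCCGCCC
Capitals mark the TATA box (TATAAA), the GC box (GGGCGG) and the CArG box, the site known for serum response factor, each searched on both strands. A promoter window was found for 9 of the 10 members, Actb being the one without, and some have several annotated starts, giving 12 windows. The GC box was in 7 of the 12 windows, and in 32.7% of all 32851 promoter windows of the same length. The CArG box was in the Actg1 window alone among the members, 90 to 81 bases before the start, and in 1.47% of all windows. The TATA box was in 1 Arhgdib window, 234 to 229 and 219 to 214 bases before the start, and in 12.4% of all windows. None of these letters was in the Pde6h stretch, and a match describes letters only.

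Pde6h (ENSMUSG00000064330, chr6:136923832-136968865, plus strand, mm10) had the most counts of the members by far. Its counts were 11101, 11100, 11015 and 9062 in replicates 1 to 4, and it ranked 12 among all genes by mean count. Replicate 4 was lowest by count, but by CPM replicates 3 and 4 lay together at 4062 and 4176, below 6153 and 6012 in replicates 1 and 2. Arhgdib (ENSMUSG00000030220, chr6:136923655-136941899, minus strand) had 78, 69, 72 and 11 counts. Replicates 1 to 3 were alike and replicate 4 was far below them, with no overlap. Per length, Pde6h averaged 973 ± 189 TPM and Arhgdib 24.7 ± 14.4 TPM (SD, n = 4).

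The ratio of Pde6h to Arhgdib counts was 142, 161, 153 and 824 in replicates 1 to 4. Summed over the libraries it was 184, with a 95% exact conditional interval of 161 to 210 that, like the other intervals and floors, covers counting error only. Per exon base the summed ratio was 40.0. Without replicate 4 the ratio of counts was 152, and the mean log2 ratio was 7.24, against 7.83 ± 1.19 over all 4 libraries (SD). The higher ratio of replicate 4 came with 11 Arhgdib counts, while Pde6h kept 9062.

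Very little of Pde6h lies on Arhgdib. The 2 genes share 136 exon bases, which are 1.73% of the exon length of Pde6h and 7.97% of that of Arhgdib. Both shared blocks lie in the last exon block of Arhgdib, which is 672 bases long. The first, chr6:136923832-136923907, is 3′ UTR in transcripts Arhgdib-201 and Arhgdib-203. The second, chr6:136924157-136924216, is coding sequence in Arhgdib-201 and Arhgdib-203 among others, by the GENCODE M21 transcripts. On the other strand, 1 transcript, Pde6h-204, carries both blocks as UTR. The next Pde6h block begins 30306 bases further on, at 136954523, which is the base after the Pde6h stretch printed above. The remaining 3 blocks, of 57, 1980 and 5673 bases, hold 98.3% of the exon length of Pde6h. The counts are per gene and do not say on which block a fragment lay, so the share of the Pde6h counts that fell on the Arhgdib end cannot be told from these tables.

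**Figure D1:**
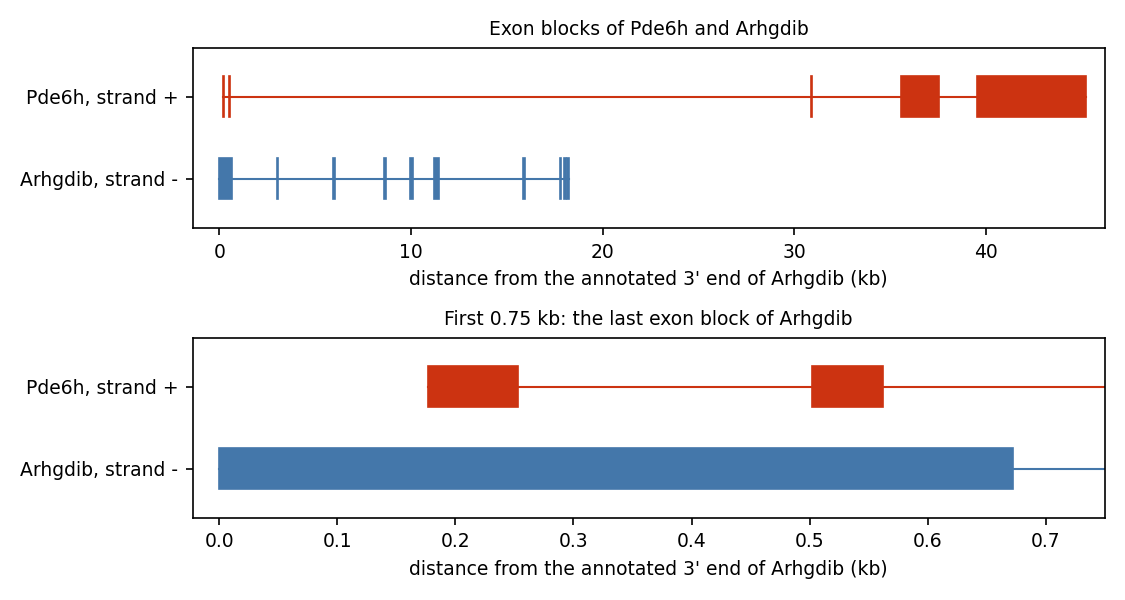
Exon blocks of Pde6h on the plus strand and Arhgdib on the minus strand, by distance in kb from the annotated 3′ end of Arhgdib. The lower panel enlarges the last Arhgdib exon block, 672 bases long, with the Pde6h blocks of 76 and 60 bases over it.

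Other genes of the photoreceptor enzyme did not share the level of Pde6h. The rod catalytic genes Pde6a and Pde6b had 1, 2, 0 and 2 and 12, 9, 11 and 11 counts. Pde6d, a prenyl-binding protein used in many tissues, had 5, 2, 4 and 4. The cone catalytic gene Pde6c and the rod inhibitory gene Pde6g had no count in any library. Of 10 cone photoreceptor markers 1 was called above 1 TPM by limma's moderated test and 4 below. The others were 2 not called and 3 with no count. Of all genes with a count, 32.1% were above and 26.6% below. The marker called above was Gngt2, a transducin gamma subunit, with 69, 87, 78 and 55 counts. It shares 234 exon bases with Abi3, which had 481, 548, 528 and 519. The cone opsin gene Opn1mw and the channel gene Cnga3 were at 0, and the marker list summed to 80, 92, 89 and 61 counts.

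Actb (ENSMUSG00000029580, chr5:142903115-142906754, minus strand) and Actg1 (ENSMUSG00000062825, chr11:120345690-120348542, minus strand) encode the 2 cytoplasmic actins. Actb had 276, 324, 299 and 48 counts in replicates 1 to 4. Actg1 had 71, 80, 73 and 11. In each gene the first 3 libraries lay close together and replicate 4 was the lowest. Actb exceeded Actg1 by 3.89, 4.05, 4.10 and 4.36 times, and the 95% exact conditional interval of replicate 4, 2.23 to 9.32, covers the other libraries, so the balance between the actins was not detectably different there. Per length they averaged 64.7 ± 37.0 TPM for Actb and 16.2 ± 9.47 TPM for Actg1 (SD, n = 4).

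The 2 actin genes are close in sequence, and whether this bears on that comparison was not tested. Their coding sequences, 1125 bases each without the stop codon, are identical at 997 bases, or 88.6%. The first 60 coding bases of each, from the GENCODE M21 transcripts, are shown with the 9 bases that differ between them in capitals.
Actb: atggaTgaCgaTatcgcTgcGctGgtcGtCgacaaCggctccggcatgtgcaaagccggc
Actg1: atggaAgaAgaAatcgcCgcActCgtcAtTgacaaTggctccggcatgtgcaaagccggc
Of the 50-base words of Actg1 transcripts, 37.4% also occur in transcripts of 23 other genes, most of them in Gm12715. For Actb this was 9.12%, in 18 other genes, for Cfl1 7.25% and for Arpc1b 7.38%. It was at most 0.281% for the other 6 members, and 0 for Arhgdib, Pfn1, Coro1a and Tmsb4x. Fragments that align to several places were not counted, so the Actg1 counts in particular are uncertain and the Actb to Actg1 ratio may not be one of transcripts.

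The genes that keep actin monomers and turn filaments over came next. Tmsb4x (ENSMUSG00000049775, chrX:167207093-167209315, minus strand), which encodes the monomer-sequestering thymosin beta-4, had 142, 183, 176 and 33 counts. Cfl1 (ENSMUSG00000056201, chr19:5490455-5495201, plus strand), the severing protein cofilin, had 112, 127, 110 and 18. Pfn1 (ENSMUSG00000018293, chr11:70651850-70654644, minus strand), the profilin that feeds monomers to growing ends, had 93, 136, 118 and 57. Replicate 4 was the lowest for all 3, far below the others for Tmsb4x and Cfl1 and nearer to them for Pfn1. They averaged 70.9 ± 38.4, 28.7 ± 16.9 and 30.4 ± 11.8 TPM for Tmsb4x, Cfl1 and Pfn1 (SD, n = 4). Pfn1 has close neighbours: Rnf167, 428 bases away on the other strand, had 50, 51, 44 and 60 counts, and Gm12319, 96 bases away on its own strand, had 34, 37, 45 and 63. Neither was lower in replicate 4, and whether they bear on the Pfn1 count was not tested.

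Branching of filaments is represented by the Arp2/3 subunits and a coronin. Arpc1b (ENSMUSG00000029622, chr5:145114215-145130705, plus strand), a subunit known for its role in blood cells, had 450, 446, 419 and 391 counts. Arpc2 (ENSMUSG00000006304, chr1:74236084-74268209, plus strand), a core subunit that binds the mother filament, had 61, 64, 59 and 7. Coro1a (ENSMUSG00000030707, chr7:126699773-126707787, minus strand), a coronin of blood cells needed for T cell survival, had 70, 71, 67 and 16. The subunits of 1 complex thus parted in replicate 4, where Arpc1b stayed near the other libraries and Arpc2 was the lowest of all members. They averaged 60.3 ± 11.6 TPM for Arpc1b, 17.3 ± 10.5 for Arpc2 and 14.8 ± 7.76 for Coro1a (SD, n = 4).

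**Figure D2:**
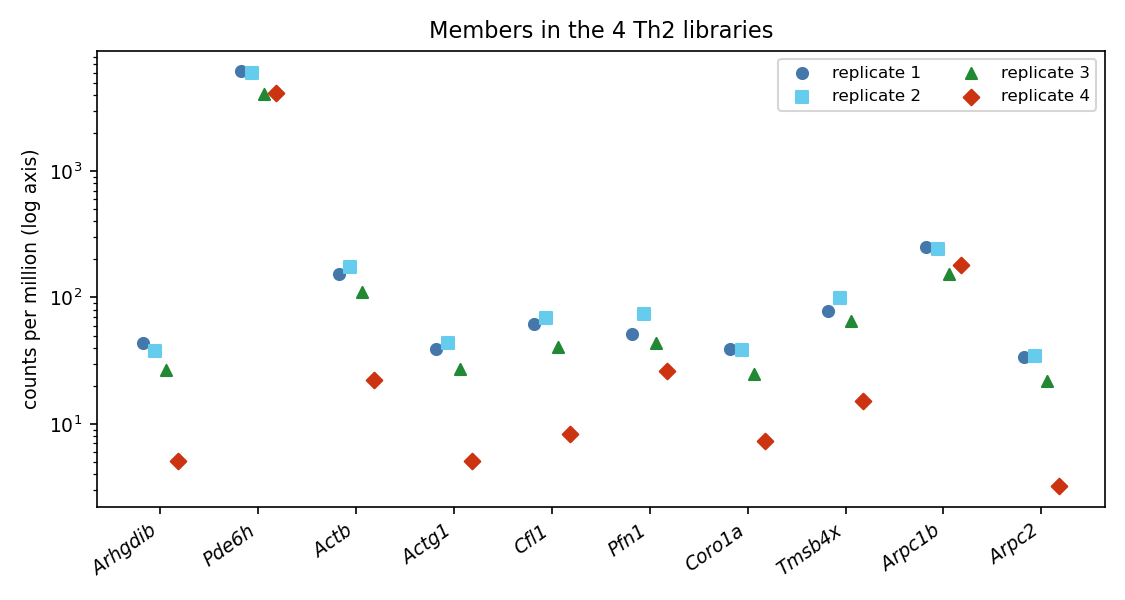
CPM of the 10 members in each library, on a log axis, with 1 point for each replicate. Replicate 4 lies apart below the others for 7 members and nearer to them for Pfn1, while for Pde6h and Arpc1b it lies just above replicate 3.

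Ordered by mean TPM, the members ran Pde6h, Tmsb4x, Actb, Arpc1b, Pfn1, Cfl1, Arhgdib, Arpc2, Actg1 and Coro1a. Neighbours in this order differed by less than their SD, except Pde6h above Tmsb4x and Arpc1b above Pfn1. Over replicates 1 to 3 alone Tmsb4x was at 89.1 ± 14.9, Actb at 82.3 ± 14.4 and Arhgdib at 31.5 ± 5.86 TPM (SD, n = 3), with a smaller spread than over all 4 libraries. Arpc1b, at 63.3 ± 12.1 TPM, kept about the same spread. The order of Pfn1 and Cfl1 was then turned round, at 35.3 ± 8.34 and 36.5 ± 7.53 TPM. The raw counts of Arhgdib, Pde6h, Coro1a and Arpc2 were closer still, with ranges of 69 to 78, 11015 to 11101, 67 to 71 and 59 to 64 over these 3 libraries.

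Replicate 4 was then set against the mean of replicates 1 to 3 as a difference in log2 CPM. Of the 10 members, 8 lay more than 1 below that mean and 0 more than 1 above it, where 28% of the 5463 genes that had 10 or more counts in replicates 1, 2 and 3 each were lower and 2.16% higher. More than 2 lower were 7 members and 14.5% of these genes. The members were chosen with Actb known to be low in this library, so the count supports nothing. The differences were -3.10 for Arpc2, -2.76 for Actg1, -2.73 for Arhgdib, -2.71 for Cfl1, -2.69 for Actb, -2.37 for Tmsb4x, -2.14 for Coro1a, -1.06 for Pfn1, -0.35 for Pde6h and -0.22 for Arpc1b. As shares of the mean CPM of the other libraries, replicate 4 held 10.7% for Arpc2, 15.1% for Actb, 14.2% for Arhgdib, 46.7% for Pfn1, 77.2% for Pde6h and 83.7% for Arpc1b. Pfn1 lies just inside the limit of 1 and Pde6h is the nearest outside it. Scaling matters for both ends: the median of all 5463 genes was -0.20 with library totals, 0.01 with TMM factors and 0.13 with DESeq2 size factors. Under TMM and DESeq2 factors Pfn1 was at -0.84 and -0.73, without replicate 2 it was at -0.84, and Arpc1b was at 0.11 with DESeq2 factors, so 7 members were lower under those settings. Relative to the median of all genes with library totals, Arpc1b and Pde6h were thus close to it and the 7 lowest members were well below.

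In bulk RNA fewer cells of a type and less RNA per cell cannot be told apart. The T cell markers were also low in replicate 4, with 5 of the 7 that had enough counts more than 1 lower and a median of -1.58. Among all genes with enough counts 28% were lower, with a median of -0.20. Of the 5 markers with no shared exon bases 4 were lower, beside 55.9% of all such genes, whose median was -1.24. Of the 2 that share at least 50 bases 1 was lower, beside 9.49%. The part of the markers in the result was not tested. Il4 was not among the lower markers, with 24, 21, 25 and 26 counts.

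Shared exon bases divided the background. Among all genes with enough counts, 55.9% of the 2115 whose exons overlap no gene of the opposite strand were more than 1 lower in replicate 4, and 9.49% of the 3150 that share at least 50. More than 1 higher were 1.18% and 2.89% of them. The medians were -1.24 for genes with no shared bases and -0.06 for genes with at least 50. The members with no shared bases, Actb, Actg1, Cfl1, Pfn1, Tmsb4x and Arpc2, were all 6 more than 1 lower, and 5 of them more than 2, where 30.9% of all genes with no shared bases were more than 2 lower. Arpc1b, which shares 931 bases with Pdap1, lay at -0.22, between the median and the 25th percentile of the sharing genes, -0.30. Pde6h, at -0.35, lay just below that percentile. Arhgdib shares the same 136 bases as Pde6h and lay outside the 5th percentile of the sharing genes, -1.75.

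**Figure D3:**
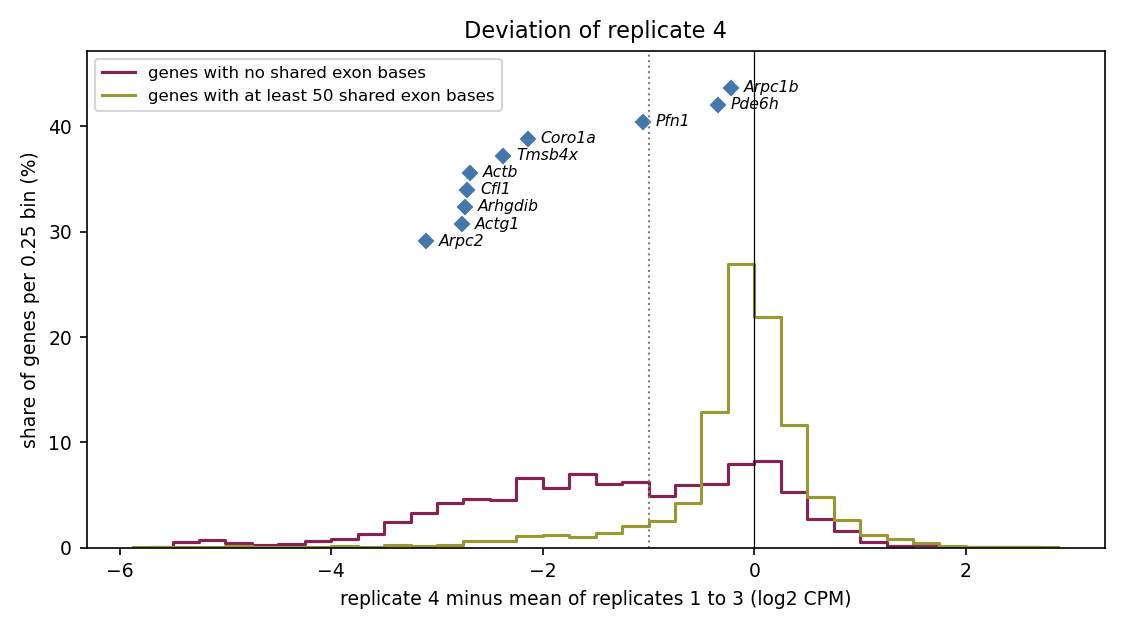
Replicate 4 minus the mean of replicates 1 to 3, in log2 CPM, as the share of genes in each bin of 0.25, for 2115 genes with no shared exon bases and 3150 with at least 50. Diamonds give the 10 members, at heights that have no meaning; the dotted line is the limit of 1, and 8 members lie to its left.

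Ratios to Actb within a library are free of library scaling. Actg1, Cfl1 and Arhgdib stood at 0.257, 0.406 and 0.283 of Actb in replicate 1 and at 0.229, 0.375 and 0.229 in replicate 4. For Arhgdib the interval in replicate 4, 0.107 to 0.447, contained the value of 0.244 summed over replicates 1 to 3. The same was true of Actg1, Cfl1, Coro1a, Tmsb4x and Arpc2. These 6 genes and Actb were low together in replicate 4, and the proportion of each to Actb was not detectably different there at 7 to 48 counts. Pfn1 stood apart at 1.19 (0.795 to 1.78) in replicate 4, beside 0.386 (0.340 to 0.437) in the other libraries. Arpc1b stood at 8.15 (6.03 to 11.2) in replicate 4 and at 1.46 (1.34 to 1.59) in the others, and Pde6h at 189 (142 to 256.2) and 36.9 (34.6 to 39.5).

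**Figure D4:**
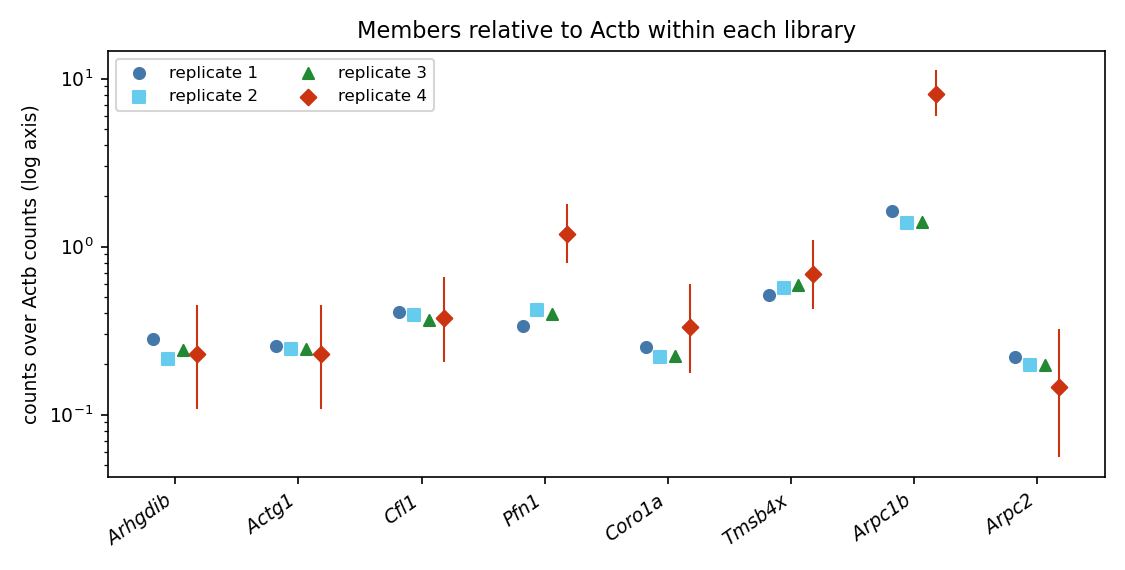
Counts of 8 members divided by the Actb count of the same library, on a log axis, with 95% exact conditional intervals for replicate 4. Pfn1 and Arpc1b lie higher in replicate 4, at 1.19 and 8.15, and the intervals of the other 6 cover their values in replicates 1 to 3; Pde6h is left out for its scale.

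Spread between replicates was also fitted across all genes with edgeR's quasi-likelihood dispersions. None of the 4190 genes passed at an adjusted p under 0.05, and 237, or 5.66%, had an unadjusted p under 0.05. DESeq2's dispersion outliers numbered 13. Of the 9 members that passed the expression filter, 5 had an unadjusted p under 0.05 and 0 an adjusted one. The adjusted p of this edgeR fit was 0.78 for Actb, 0.83 for Tmsb4x and 0.85 for Arhgdib, Actg1 and Cfl1. The members were chosen with Actb known to be low in replicate 4, so these 5 support nothing. Arpc2, with the fewest counts, did not pass the filter and has no value in this fit.

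Features opposite the other members were looked up by their coordinates. Only Arpc1b and Coro1a, beside Arhgdib and Pde6h, overlap exons of an opposite gene. Pdap1, which encodes a PDGF-associated protein, lies end to end with Arpc1b (chr5:145128769-145140238, minus strand), and the 931 shared bases are UTR of both genes. Pdap1 had 240, 225, 260 and 198 counts, fewer than Arpc1b in every library. Its log2 ratio to Arpc1b was -0.89 ± 0.14 (SD, n = 4), and neither gene stood apart in replicate 4. Where their ends overlap, counting by strand decides which gene a fragment goes to.

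Bola2, which encodes a protein of iron-sulphur cluster assembly, shares only 26 bases with the 3′ end of Coro1a, below the limit of 50 used for the other pairs. It had 886, 837, 658 and 700 counts, against 70, 71, 67 and 16 for Coro1a. The ratio of Bola2 to Coro1a was 12.7, 11.8, 9.82 and 43.8 in replicates 1 to 4, so replicate 4 was again the highest. Bola2 itself was at -0.23 in log2 CPM in replicate 4, near the median of all genes. In the Pde6h and Arhgdib pair and the Bola2 and Coro1a pair the feature with more counts thus stayed near the other libraries in replicate 4 while its partner was low.

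Beyond the members, 89 other genes of 7 actin lists were counted. By limma's moderated test 38 were called above 1 TPM and 10 below, 30 were not called and 11 had no count. These 89 stand beside shares over genes with a count only, 32.1% above and 26.6% below. Without replicate 4, a setting added after the data had been seen, 53 were above and 5 below, beside 38.9% of all 16573 genes above. In replicate 4, 37 of the 47 with enough counts were more than 1 lower and 0 higher, with a median of -1.75, beside 28% of all genes with enough counts lower and a median of -0.20. Of the 28 with no shared exon bases 27 were lower, beside 55.9% of all such genes, and of the 18 with at least 50 shared bases 9, beside 9.49%. The lists were chosen with earlier results known, so nothing particular to them is read from these shares.

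Of the 4 actin genes beside Actb and Actg1 none was called above. Of the muscle actins, Acta1 and Actc1 had no count and Acta2 was called below, at 0.317 ± 0.422 TPM (adjusted p = 0.047). Among monomer binding genes Tmsb10, the sister of Tmsb4x, had 212, 206, 322 and 104 counts, at 117 ± 43.0 TPM (adjusted p = 5.8e-08). Cap1, a cyclase-associated protein that recycles monomers, had 216, 169, 158 and 163 counts, at 36.8 ± 10.04 TPM (adjusted p = 1.5e-08). Tmsb10 was lower in replicate 4 by count and Cap1 was not. Of the other members of that list, 4 were called below: Cfl2, the muscle cofilin, the cofilin kinase gene Limk1, and the cofilin phosphatase genes Ssh1 and Ssh3, with 0 to 3 counts in any library.

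Of the 8 Arp2/3 subunit genes beside Arpc1b and Arpc2, 5 were called above, 0 below and 1 had no count. Of all genes with a count, 32.1% were above and 26.6% below. Actr3, which carries the Arp3 nucleating subunit, had 54, 65, 51 and 13 counts, at 7.28 ± 4.04 TPM (adjusted p = 0.0010). Arpc5l had 32, 27, 29 and 32 counts, at 4.801 ± 0.773 TPM (adjusted p = 0.00014), and shares 62 bases with the ribosomal protein gene Rpl35. Of the 8 subunits of the whole list with enough counts, Arpc1b and Arpc2 included, 6 were more than 1 lower in replicate 4. Among all genes with enough counts 28% were. The 6 have no shared bases, and of all such genes 55.9% were lower. The other 2, Arpc1b and Arpc5l, share at least 50 bases, and of all such genes 9.49% were lower. Arpc1a also shares 50 bases, with Kpna7, but had too few counts to be included, with 5, 1, 9 and 0.

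Nucleation promoting genes include the WAVE complex, which turns Arp2/3 on below the membrane. Cyfip1, one of its subunits, had 1109, 982, 1041 and 941 counts, at 61.5 ± 10.95 TPM (adjusted p = 1.1e-09), and shares bases with Nipa2, which had 3, 4, 7 and 1. Abi1, another subunit, had 144, 118, 199 and 221 counts, at 29.7 ± 5.59 TPM (adjusted p = 1.3e-08). Neither was low in replicate 4. Hcls1, the cortactin of blood cells, had 43, 43, 63 and 9 counts, at 11.2 ± 5.90 TPM (adjusted p = 0.00059), and was low there. Cortactin itself, Cttn, was called below with 2 counts in all, as were Wasl and Nckap1. In the whole list 10 of 23 genes were above, 3 below and 3 without a count. The shares of all genes with a count were again 32.1% and 26.6%.

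Filament binding and myosin genes gave 13 of 21 above, 1, Gsn, below and 1 without a count. Beside them stand the same 32.1% and 26.6% of all genes with a count. Lcp1, the leukocyte plastin that bundles filaments, had 151, 150, 153 and 16 counts, at 9.06 ± 5.48 TPM (adjusted p = 0.0066). Myh9, the non-muscle myosin heavy chain, had 153, 207, 247 and 66, at 9.31 ± 4.12 TPM (adjusted p = 7.7e-05). Ezr, a linker of actin to the membrane, had 106, 69, 134 and 51, at 19.4 ± 7.31 TPM (adjusted p = 8.1e-07), and Tpm4, a tropomyosin, 66, 81, 83 and 65, at 24.0 ± 3.90 TPM (adjusted p = 2.2e-08). Replicate 4 was the lowest by count for all 4, by the widest margin for Lcp1. Capza2, a capping protein subunit chosen after its values were seen, had 20, 29, 13 and 0.

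Of the 89 genes, 23 have a feature on the other strand that shares at least 50 exon bases, and for 15 of them that feature had more counts than the gene in each library, where 40.4% of 5513 genes with such a feature did. With Pde6h and Pdap1, opposite Arhgdib and Arpc1b, and taking for each gene the 1 feature that shares most bases, there were 25 features. Of these, 19 had enough counts. In replicate 4 none of the 19 moved by more than 1 in either direction (0 below and 0 above). Among all genes with at least 50 shared bases and enough counts, only 9.49% were more than 1 lower and 2.89% higher. The median of the 19 was -0.07, with a range of -0.80 to 0.61. Arhgdib, seen as the feature opposite Pde6h, is not among the 25 and was at -2.73. The pairs named next were chosen after their values were seen. Degs2, opposite the filament elongation gene Evl, had 3475, 3697, 3680 and 3671 counts, against 45, 34, 35 and 11 for Evl. Gm17122, an antisense gene within Coro1c, had 3084, 3154, 3423 and 3042 counts, and Coro1c had 44, 32, 46 and 9. Lcp1 has 2 such features: Gm15628, which shares 311 bases and is the one in the counts above, had no count in any library, and Gm15629, which shares 219, had 3507, 3436, 3349 and 2639. In the pairs with Degs2, Gm17122 and Gm15629, as with Pde6h and Arhgdib, the feature, with far more counts, was nearer to even over the libraries and the gene was low in replicate 4. Daglb and Rac1 did otherwise: Daglb had 1786, 1908, 1606 and 1493 counts, against 119, 139, 151 and 116 for Rac1, and both genes were near the other libraries in replicate 4.

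**Figure D5:**
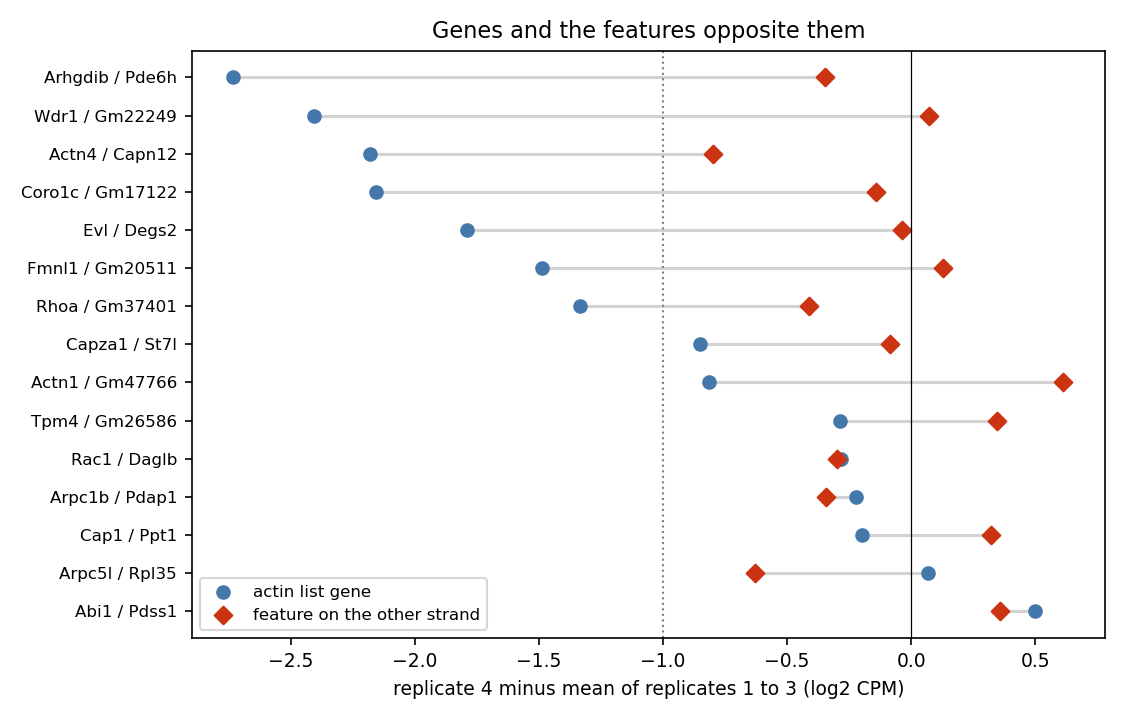
Replicate 4 minus the mean of replicates 1 to 3, in log2 CPM, for 15 actin list genes and the feature that shares most exon bases with each, where both have 10 or more counts in replicates 1, 2 and 3. The genes range from -2.73 for Arhgdib to 0.50 for Abi1, and the features from -0.80 for Capn12 to 0.61 for Gm47766.

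The genes most like a member over the 4 libraries were found by the distance between centred log2 CPM, among 2728 genes with a mean count of at least 50. Nearest to Arhgdib were Tpr, at a distance of 0.10 with 133, 129, 124 and 20 counts, and Hnrnpa2b1, at 0.18 with 163, 172, 166 and 26. Nearest to Pde6h were Gm16062, at 0.019 with 1632, 1661, 1628 and 1347 counts, and Pip4p1, at 0.029 with 5955, 5982, 6007 and 4807. Nearest to Actb were Mcm3, at 0.065 with 84, 100, 96 and 15 counts, and Actg1 itself, at 0.088. Tpr, Hnrnpa2b1, Mcm3 and Actg1 were lowest in replicate 4 by count, as Arhgdib and Actb were. They were picked for a like pattern over these libraries, so this follows from the choice. The likeness is over 4 libraries of 1 group.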

How the data were processed

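The 4 deposited tables gave raw counts per gene, which the authors made with featureCounts 1.4.6-p4 over exons of GENCODE M13 genes on mm10, with both ends aligned and strand setting 1, per the file headers. Multimapping fragments and fragments of overlapping genes on 1 strand were left out. The alignments are named star2, and the aligner's version is not given in the sources used here. By its label the assay was total RNA-seq, but the protocol linked for library construction is one for poly(A) RNA. Header paths name 24 hours. Symbols were matched for 50376 of 50600 gene IDs.

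TPM was computed from counts and exon length. Levels were tested against 1 TPM on log2(TPM + 0.1) with limma 3.58.1, and spread between replicates with edgeR 4.0.16, both adjusted by Benjamini-Hochberg over all genes tested, threshold 0.05. DESeq2 1.42.0 served for alternatives. Deviations used log2 CPM with a prior of 0.5. Both fits were run on simulated data. For the spread fit far fewer genes were changed in replicate 4 than were lower there in these data. That run therefore does not show how many genes the spread fit would miss here. No pair of libraries agreed within sampling noise, with chi-square statistics of 2.23 to 69.5 per degree of freedom. Members and lists were chosen with earlier results of these data known. Named genes were the members, the features opposite them, up to 4 genes per list with the highest mean count in each direction, the other Pde6 genes and the 2 nearest genes to 3 members. The genes of 1 of the 7 actin lists are counted in the totals and not described one by one here.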

Additional observations from a re-analysis of the deposited data

Results flagged for a closer look

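Of 27 quantities over the members and their opposite features, 8 had 1 library apart from the other 3, by a gap to its neighbour that is a larger share of the whole range than Dixon's 95% limit for 4 samples. Chance gives about 1 in 20, but the members were chosen with their counts known, so the number of flags supports nothing. Replicate 4 was the library apart each time. It was lowest by counts for Arhgdib (gap 0.866 of the range), Pde6h (0.958), Actg1 (0.870), Cfl1 (0.844), Coro1a (0.927) and Arpc2 (0.912). It was highest for the ratio of Pde6h to Arhgdib counts (0.973) and for the ratio of Bola2 to Coro1a counts (0.916). No member was set apart in this way on the CPM scale, where replicate 3 also lies lower. For Pde6h the counts of replicates 1 to 3 span only 11015 to 11101, so that 9062 in replicate 4 stood apart although its CPM did not. These flags were not independent, since 6 of the quantities are counts of the same library.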

How the results depend on the processing

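No paired analysis was possible because the series holds 1 group. Genes called above 1 TPM numbered 5523, and 3315 at a level of 5 TPM. Genes called below numbered 4571, and 11518 at 5 TPM, 13 among genes with a mean count of at least 10, where few low genes are left to test, and 2410 to 2928 without any 1 replicate. Genes with spread above the trend numbered 0, and 149 with no filter, 13 by DESeq2's outliers and 0 to 18 without 1 replicate, the 18 being without replicate 4; the cause was not tested. Members lower in replicate 4 numbered 7 or 8 under every alternative tried, and other actin genes 33 to 37. Of 70 deviations of members under alternatives, 69 moved by less than the replicate spread, and of 60 levels 58. With a minimum of 200 shared bases the Pde6h and Arhgdib pair gives no value. Depth limits the members most in replicate 4, where 4 of them had 7 to 16 counts.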
